A study of Mus musculus with 18 samples.

Results

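The genes described here are Dusp1, Dusp4, Dusp5 and Dusp6, 4 dual-specificity MAP kinase phosphatases chosen by name among the 22063 genes of the count table. All 4 were measured and all 4 passed the filter on low counts, which left 14763 genes. RNA had been sequenced from 18 hippocampus samples of mice in 4 groups. Mice of the D-V group (n = 5) underwent bidirectional rotation without vision, which the labels name a Coriolis illusion. Mice of the D+V group (n = 5) underwent bidirectional rotation too, with vision left free, and those of the S-V group (n = 5) unidirectional rotation without vision. The Control group (n = 3) is labelled blank control. Rotation was multi-axis and meant to disorient the animals through the vestibular system, and tissue was collected directly afterwards, per the series design text. The labels used here give no strain, age or sex, and do not say whether each sample is a separate animal, so the p-values below measure the spread between these samples. The tissue is whole hippocampus, in which fewer cells of a type and less RNA per cell cannot be told apart.

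MAP kinases such as ERK, JNK and p38 are switched on by phosphorylation of a threonine and a tyrosine in their activation loop, and the dual-specificity phosphatases remove both phosphates. Several of these phosphatase genes are themselves induced by the kinases they switch off, which makes them a negative feedback on the pathway. In the hippocampus, ERK signalling follows synaptic activity and takes part in memory formation, and Dusp1, Dusp5 and Dusp6 are known as activity-responsive genes there. DUSP1 is a nuclear enzyme that acts on ERK, JNK and p38, and glucocorticoids also induce its gene. DUSP4 is a nuclear relative, DUSP5 is a nuclear phosphatase selective for ERK, and DUSP6 is the cytoplasmic phosphatase selective for ERK.

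The upstream sequences of Dusp1 and Dusp5 are shown because these were the 2 members whose D+V values all lay below all S-V values. A RefSeq promoter table of build GRCm38.p6 held 3 of the 4 genes, Dusp1, Dusp5 and Dusp6. Each stretch below has 160 bases and runs from 200 to 41 bases before the annotated start, and it was read in the direction of transcription. Capitals mark, in Dusp1, the cAMP response element TGACGTCA and its half-site TGACG, and in Dusp5 the half-site, read as CGTCA on the other strand, and the CArG box, the element bound by serum response factor.
Dusp1, chr17:26508513-26508672, minus strand: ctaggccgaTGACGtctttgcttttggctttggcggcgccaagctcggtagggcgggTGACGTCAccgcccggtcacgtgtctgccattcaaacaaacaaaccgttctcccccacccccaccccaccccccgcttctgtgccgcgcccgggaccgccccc
Dusp5, chr19:53528945-53529104, plus strand: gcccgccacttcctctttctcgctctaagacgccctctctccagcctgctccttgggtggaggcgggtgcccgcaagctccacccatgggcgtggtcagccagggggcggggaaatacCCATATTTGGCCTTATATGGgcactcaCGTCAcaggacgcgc
In Dusp1 the full cAMP response element lay 143 to 136 bases before the start, and a separate half-site lay at 191 to 187 bases. The full element contains the half-site on both strands, so these matches overlap. In Dusp5, CArG boxes at 82 to 73 and at 72 to 63 bases adjoined each other, and a half-site lay at 55 to 51 bases. Both strands of windows of 300 bases, 250 before and 50 after the start, were searched, and among all 32851 windows 1.79% held the full element, 20.8% the half-site and 1.63% a CArG box. The AP-1 motif TGANTCA (7.81% of windows), the EGR motif GCGNGGGCG (5.55%) and the glucocorticoid half-site AGAACA (19.0%) had no match in any of the 3 windows, and the Dusp6 window held none of the 6 motifs. A match is only a run of letters in this window and does not show that a factor binds there.

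The 18 libraries held between 15.03 and 25.31 M estimated counts each. Marker genes of hippocampal neurons were present in every library, with a summed level of 818 to 1180 CPM (counts per 1 M counts, TMM-scaled). Choroid plexus markers exceeded 3 times the median of the 18 libraries in 5 of them, namely D-V replicates 3 and 4, D+V replicate 2 and S-V replicates 2 and 4. Summed thalamus and habenula markers lay between 44.9 and 72.9 CPM in D-V, between 44.0 and 87.0 CPM in D+V and between 61.7 and 78.9 CPM in S-V, against 73.2 to 118 CPM in Control. D+V replicate 1 stood apart from the other D+V libraries: across 12750 genes, the rank correlation of its deviation from the 18-library mean with transcript length was -0.47, against 0.25 to 0.48 in the other 4 D+V libraries, and its Dusp4 level and ratios between members, given below, lay outside theirs too. Each count of a member was between 220 and 1601. Within groups, the coefficients of variation of the members were 6.35% to 27.6%, and counting error at the groups' typical counts gives 2.93% to 5.61%.

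Per kilobase of the longest transcript, Dusp6 was the most abundant member, at 20.6 ± 2.78 CPM per kb (mean and SD over 18 libraries). Dusp1 followed at 9.29 ± 1.41 CPM per kb and Dusp5 at 8.99 ± 1.72 CPM per kb, a difference smaller than the SD of either. Dusp4 was lowest, at 6.30 ± 1.15 CPM per kb. By CPM, the 4 genes stood at the 74.1th (Dusp6), 50.5th (Dusp5), 49.7th (Dusp1) and 44.7th (Dusp4) percentile of the tested genes.

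No member passed an adjusted p of 0.05 in edgeR's quasi-likelihood test in any of the 7 comparisons. In D+V against Control 0 of 4 were called, where 0.908% of the 14763 genes were. In D-V against Control, S-V against Control, the 3 rotated groups together against Control, D-V against D+V, D-V against S-V and D+V against S-V, 0 of 4 were called and so were 0% of all genes. At an unadjusted p under 0.05, 3 of 4 members were lower in D+V than in S-V, where 13.0% of all genes passed that threshold in either direction and 4.79% were lower. Dusp5 alone passed it in D-V against D+V (13.7% of all genes) and in S-V against Control (13.7%), and Dusp1 alone in D+V against Control (17.9%). No member passed it in D-V against Control (6.20%), in the rotated groups together against Control (13.1%) or in D-V against S-V (6.44%). DESeq2 called Dusp5 in D+V against S-V, where it called 1.00% of all genes. The limma voom fit with quality weights called Dusp5 in D+V against S-V and in D-V against D+V, where it called 13.2% and 5.55% of all genes. Comparisons against the same group share its libraries, so their values are not independent of each other.

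**Figure D1:**
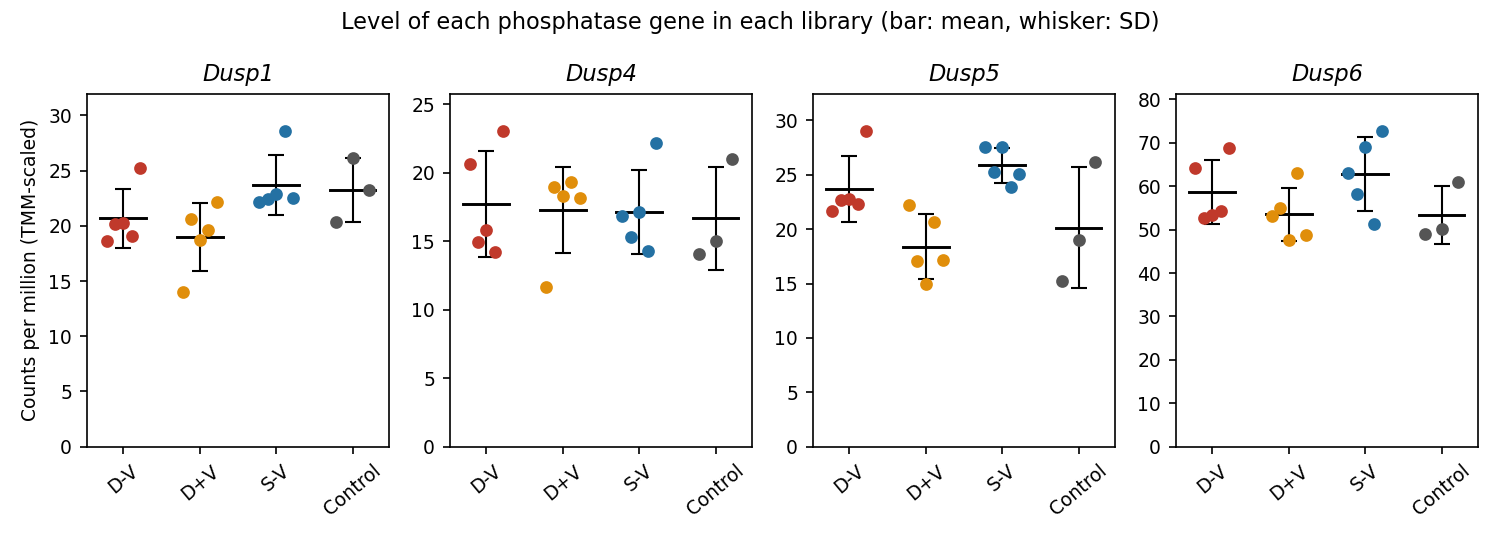
Level of each gene in each library, in TMM-scaled CPM from 0 upward, for D-V, D+V and S-V (5 libraries each) and Control (3 libraries), with horizontal bars at the group means and whiskers of 1 SD. The 5 D+V points of Dusp5 reach at most 22.2 CPM, below the lowest S-V point at 23.9 CPM, and the groups overlap for Dusp4.

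Dusp5, the nuclear ERK phosphatase, had the widest differences between rotated groups among the 4 genes. Its level was 21.6, 22.7, 22.8, 22.3 and 29.0 CPM in the D-V libraries and 22.2, 17.1, 14.9, 20.7 and 17.1 CPM in the D+V libraries. The S-V libraries had 27.6, 25.2, 27.5, 23.9 and 25.03 CPM, against 15.3, 19.0 and 26.2 CPM in the Control libraries. All 5 D+V values lay below all 5 S-V values, 4 of 5 D-V values lay above all D+V values, and the 3 Control values spread over most of the range of the rotated groups.

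Group means of Dusp5 were 18.4 ± 2.96 CPM in D+V and 25.9 ± 1.64 CPM in S-V (SD, n = 5 each). The log2 fold change of D+V against S-V was -0.49 (SE 0.13, 95% interval -0.76 to -0.22), with an adjusted p of 0.175 by edgeR, rank 94 of 14763 genes by p. That adjusted p was the smallest of any gene in the comparison, and it was tied: the genes with a smaller p shared it. In D-V, Dusp5 averaged 23.7 ± 3.003 CPM (SD, n = 5), and D-V against D+V gave a log2 fold change of 0.36 (SE 0.13, 95% interval 0.089 to 0.63, adjusted p 0.230 by edgeR). Over 11 alternative settings that value ran from 0.25 to 0.44, with adjusted p values (edgeR, DESeq2 or voom) from 0.0380 to 0.926. S-V against Control, where Dusp5 averaged 20.1 ± 5.56 CPM in Control (SD, n = 3), gave 0.36 (SE 0.15, 95% interval 0.051 to 0.67, adjusted p 0.287 by edgeR). The values against Control moved with Control replicate 3, the highest of the 3: without it, S-V against Control was 0.60 on the log2 scale (0.20 without Control replicate 1, the lowest) and D+V against Control was 0.11, where all libraries gave -0.13.

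Without D+V replicate 1, which had the highest Dusp5 level of its group, D+V against S-V was -0.56 with an adjusted p of 0.0134 by edgeR, and D-V against D+V was 0.43 with an adjusted p of 0.0478. Dusp5 was then called in both, and so were 9.91% and 8.38% of all genes, where 0% were called with that library. Across the other 17 single-library omissions D+V against S-V was not called for Dusp5. With trends in GC content and transcript length removed from each library, the value was -0.43 and the adjusted p 0.435, and 0% of all genes were called. Without the 5 libraries rich in choroid plexus markers it was -0.51, with an adjusted p of 0.296.

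**Figure D2:**
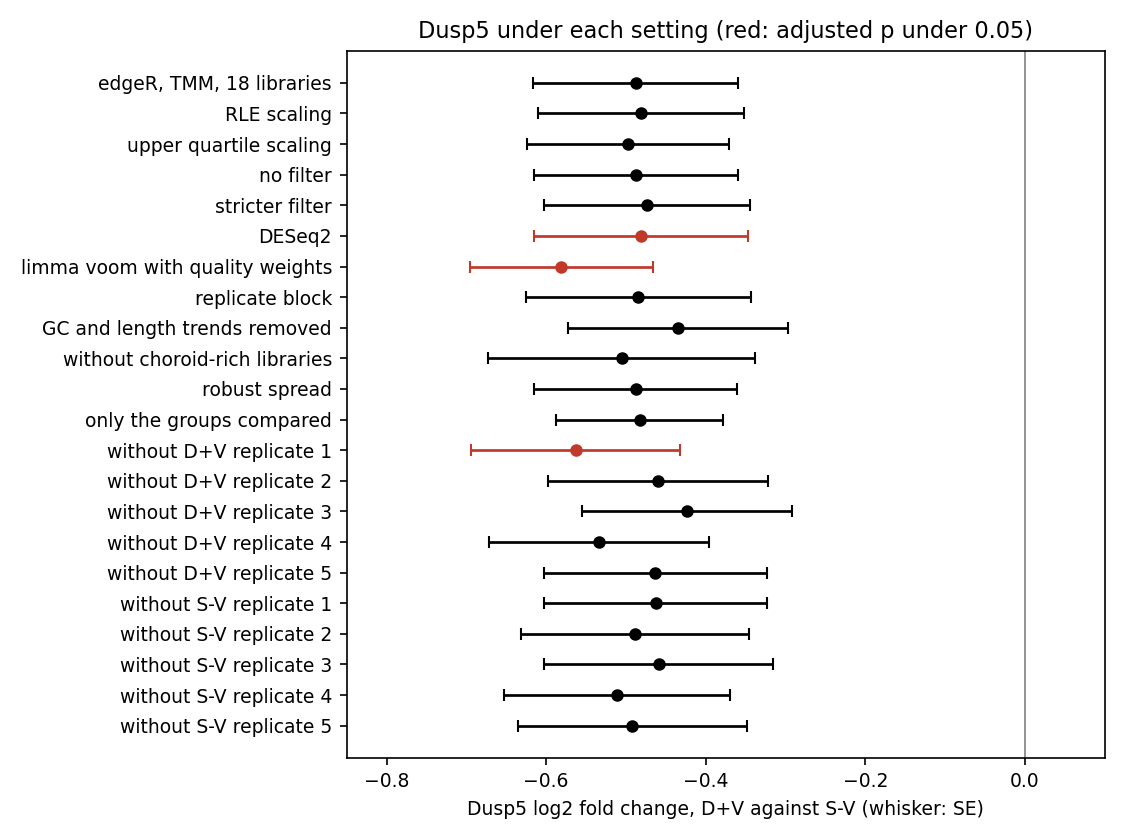
Log2 fold change of Dusp5 in D+V against S-V (x axis, whiskers 1 SE) under different ways of fitting the data (rows). Red points have an adjusted p under 0.05, and fits that leave out a single D-V or Control library are not drawn. Every value lies between -0.58 and -0.42, and 3 fits pass the threshold: DESeq2, limma voom with quality weights, and the fit without D+V replicate 1.

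Dusp1, the phosphatase with the broadest range of substrates, was also lower in every D+V library than in every S-V library. It had 18.6, 20.1, 20.2, 19.1 and 25.2 CPM in D-V and 14.0, 20.6, 18.7, 19.7 and 22.1 CPM in D+V. The S-V libraries had 22.2, 22.4, 22.9, 28.6 and 22.5 CPM, against 20.4, 26.1 and 23.2 CPM in Control. The highest D+V value and the lowest S-V value were 22.1 and 22.2 CPM, so the gap between those groups was small, and 4 of 5 D-V values lay below all S-V values.

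D+V against S-V gave a log2 fold change of -0.32 for Dusp1 (SE 0.12, 95% interval -0.56 to -0.074, adjusted p 0.286 by edgeR). Its values were -0.29 in D+V against Control (SE 0.13, adjusted p 0.258), -0.17 in D-V against Control (SE 0.13, adjusted p 0.865) and -0.20 in D-V against S-V (SE 0.12, adjusted p 0.790). Over 11 alternative settings the value in D+V against Control ran from -0.37 to -0.165. With GC and length trends removed, 0 genes were called in that comparison, where the main fit called 134. S-V against Control was 0.028 (SE 0.13), a value whose sign changed with the scaling. Without D+V replicate 1, which was the lowest in Dusp1, D+V against S-V was -0.22, and without S-V replicate 4, the highest, it was -0.24. No single omission or alternative fit called Dusp1 in that comparison, with adjusted p values from 0.155 to 0.660.

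Complete separation was thus seen for 2 of the 4 members, Dusp5 and Dusp1, in D+V against S-V, where 1.21% of all genes had groups that did not overlap and 0.596% had every D+V value below every S-V value. For Dusp1 the nearest values were 22.1 CPM in D+V and 22.2 CPM in S-V. Counting error was 5.17% in D+V and 4.79% in S-V, so the counts cannot resolve that gap. The members had been chosen with earlier results of these data known, so the count of separated members is a description. Against Control, no member had a rotated group wholly above or wholly below all 3 Control libraries, while 5.12% of all genes did in D-V, 7.63% in D+V and 12.4% in S-V.

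Dusp6, the cytoplasmic ERK phosphatase, showed overlapping groups. It had 64.1, 52.6, 53.3, 54.3 and 68.8 CPM in D-V and 53.1, 55.0, 47.5, 63.1 and 48.8 CPM in D+V. The S-V libraries had 63.1, 58.1, 69.0, 51.2 and 72.6 CPM, against 48.9, 50.2 and 61.0 CPM in Control. Of the D+V libraries 2 lay below all S-V libraries, and 3 S-V libraries lay above all Control libraries. D+V against S-V gave a log2 fold change of -0.23 (SE 0.10, 95% interval -0.45 to -0.011, adjusted p 0.368 by edgeR), and S-V against Control gave 0.24 (SE 0.12, 95% interval -0.019 to 0.49, adjusted p 0.402). The difference between D+V and Control was 0.0051 (95% interval -0.25 to 0.26).

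Dusp4, the other nuclear member, had group means of 17.7 CPM in D-V, 17.3 CPM in D+V and 17.1 CPM in S-V, against 16.7 CPM in Control. It had 20.7, 14.9, 15.8, 14.2 and 23.0 CPM in D-V and 11.7, 18.9, 18.3, 19.3 and 18.2 CPM in D+V. The S-V libraries had 16.9, 15.3, 17.1, 14.3 and 22.2 CPM, against 14.0, 15.03 and 21.0 CPM in Control. Each group held libraries near the bottom and near the top of the whole range, apart from D+V, in which 4 libraries lay between 18.2 and 19.3 CPM and replicate 1 was the lowest of all 18. The log2 fold changes ran from 0.012 in D+V against S-V to 0.088 in D-V against Control, with SEs of 0.16 to 0.19, and other fits turned the sign of several of them. The 95% intervals, from -0.33 to 0.36 in D+V against S-V and from -0.31 to 0.49 in D-V against Control, leave room for changes as large as those seen in Dusp1.

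**Figure D3:**
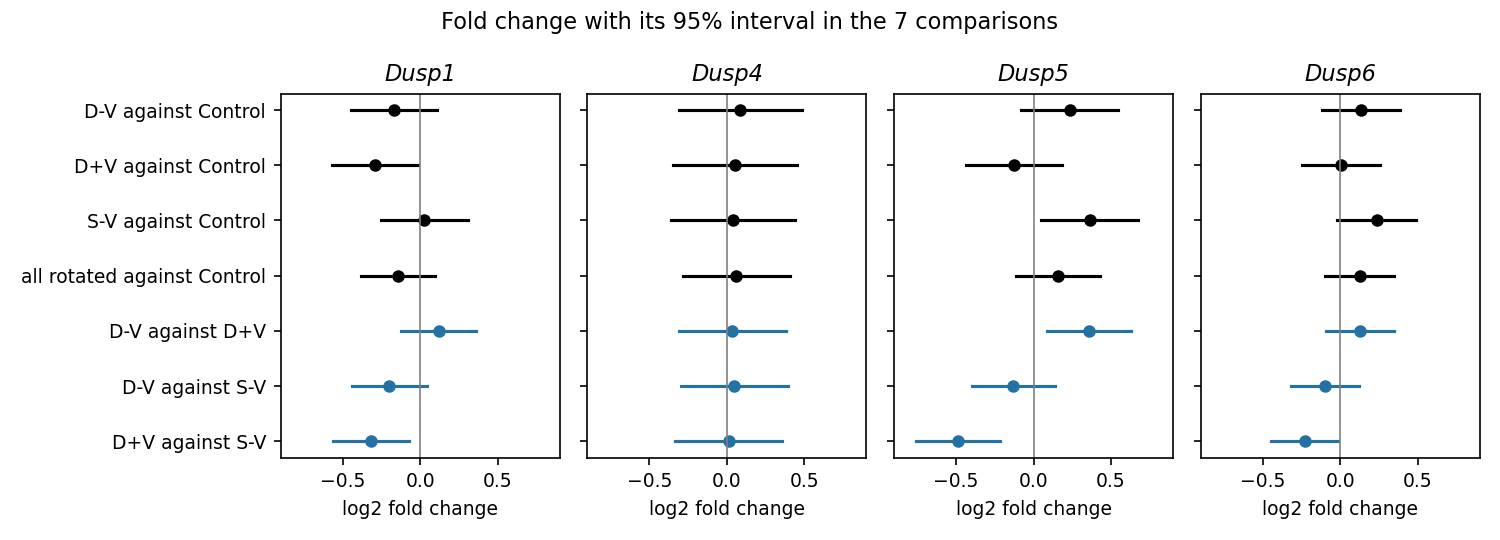
Log2 fold change (points) with its 95% interval (lines) for each gene in the 7 comparisons, those against Control in black and those between rotated groups in blue. In D+V against S-V the intervals of Dusp1, Dusp5 and Dusp6 lie below 0 before adjustment, and all 7 intervals of Dusp4 include 0.

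Over the 4 genes, the median log2 fold change was -0.27 in D+V against S-V, against -0.0046 over all tested genes, and 3 of 4 were negative, against 51.1% of all genes. The median was 0.12 in D-V against D+V (all genes 0.0089), with 4 of 4 positive where 47.7% of all genes were negative, and 0.14 in S-V against Control (all genes 0.0023), with 4 of 4 positive where 49.4% of all genes were negative. It was -0.11 in D-V against S-V, 0.11 in D-V against Control, -0.060 in D+V against Control and 0.093 in the rotated groups together against Control. The summed level of the 4 genes was 110 to 146 CPM in D-V, 99.5 to 123 CPM in D+V and 118 to 142 CPM in S-V, against 98.6 to 131 CPM in Control.

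Several lists of markers of other cell types also leaned in 1 direction between D+V and S-V. All 7 astrocyte markers were higher in D+V (median log2 0.15), with summed levels of 4368 to 5781 CPM in D+V and 4148 to 4921 CPM in S-V, and 11 of 12 endothelial and pericyte markers were lower (median -0.16), with 302 to 364 CPM in D+V and 342 to 375 CPM in S-V. All 6 red blood cell markers were higher in D+V (median 0.95), with 386 to 3208 CPM in D+V and 602 to 1001 CPM in S-V. Of 8 hippocampal neuron markers 6 were lower in D+V (median -0.040), with 881 to 1092 CPM in D+V and 837 to 1076 CPM in S-V. Lower in D+V were also 7 of 8 thalamus and habenula markers (median -0.29), 7 of 8 microglia markers (-0.058) and 7 of 8 oligodendrocyte markers (-0.078). Of 11 choroid plexus markers 8 were higher in D+V (median 0.19), and striatum markers were split, with 3 of 6 lower (median -0.0005). None of these markers was called in that comparison. Their part in the Dusp5 and Dusp1 values was not tested. The libraries also differed in base composition: the rank correlation of a library's deviation with GC content across genes was -0.39 to -0.11 in D+V and -0.27 to -0.038 in S-V. It was -0.14 to 0.37 in D-V and 0.16 to 0.48 in Control, so every Control library lay above every D+V and S-V library. With transcript length it was 0.25 to 0.48 in 4 D+V libraries and -0.47 in replicate 1, against -0.34 to 0.11 in S-V, and the longest transcripts of the 4 genes lay at the 23.5th to 32.8th percentile of length. The longest transcripts of Dusp5, Dusp4 and Dusp1 lay at the 85.004th, 81.6th and 71.9th percentile of GC content, and that of Dusp6 at the 45.8th.

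The ratio of Dusp5 to Dusp1 within a library had its narrowest range in D-V. It was 1.13 to 1.17 in the 5 D-V libraries (SD 0.0201), 0.774 to 1.58 in D+V (SD 0.341) and 0.837 to 1.24 in S-V (SD 0.159), against 0.725 to 1.13 in Control (SD 0.226, n = 3). In D+V the ratio was at or under 1.05 in 4 libraries, and the 1.58 was that of replicate 1. The coefficient of variation of the ratio in D-V, 1.75%, is smaller than the 7.13% that counting error alone gives, so these 5 values lie closer together than the counts can resolve and do not show a fixed balance. The narrow D-V range was seen after the values were known and has no test. Dusp6 to Dusp4 ran from 2.99 to 3.83 in D-V, 2.59 to 4.54 in D+V and 3.28 to 4.03 in S-V, against 2.91 to 3.49 in Control.

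**Figure D4:**
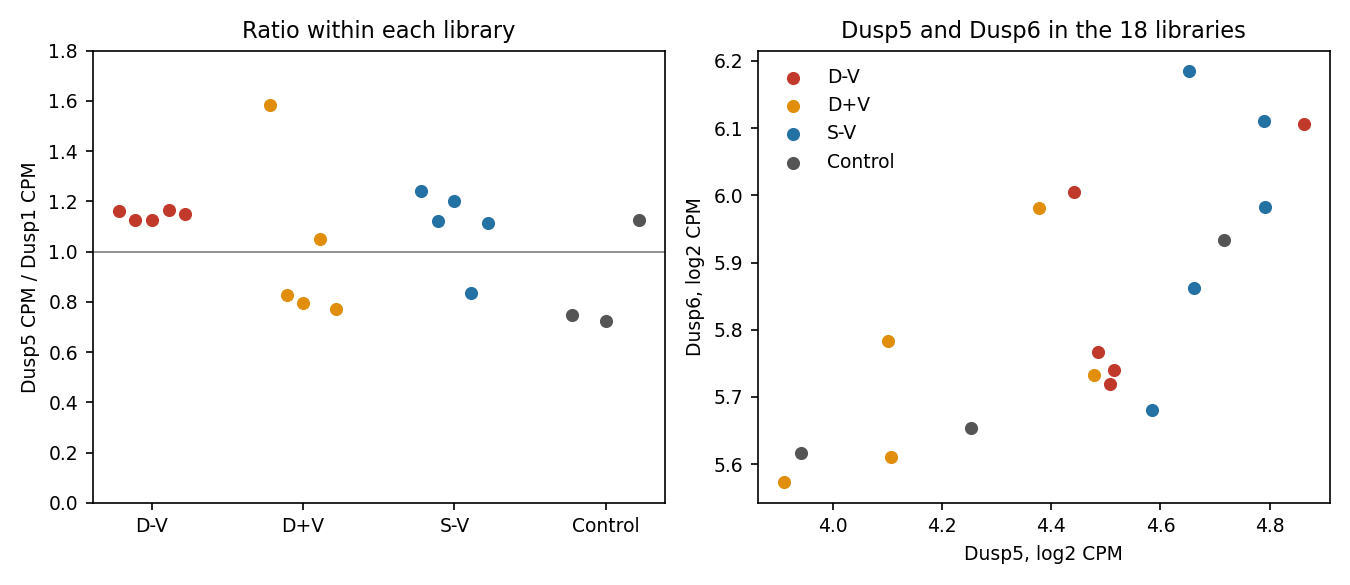
Left, ratio of Dusp5 to Dusp1 CPM in each library by group, from 0 upward with a line at 1. Right, log2 CPM of Dusp5 (x axis) and Dusp6 (y axis) in the 18 libraries coloured by group: libraries with more Dusp5 had more Dusp6 (r = 0.74), and the 5 D-V ratios lie between 1.13 and 1.17.

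Across the 18 libraries the ERK-selective pair, Dusp5 and Dusp6, varied together. Pearson's r of their log2 CPM was 0.74 and Spearman's rho was 0.69, with adjusted p values of 0.00348 and 0.0128 over the 6 pairs of members (two-sided permutation tests). The r was 0.65 without the 2 libraries farthest from the Dusp5 median, D+V replicate 3 and Control replicate 1, and 0.63 for deviations from the group means. Dusp4 and Dusp6 gave an r of 0.62 and a rho of 0.59 (adjusted p 0.0186 and 0.0363), 0.59 without the 2 farthest libraries and 0.71 within groups, but without D-V replicate 5 or without S-V replicate 5 the r was 0.56 or 0.55 and its adjusted p 0.0614 or 0.0674 by permutation. Dusp1 and Dusp5, which both separated D+V from S-V, had an r of 0.30 (adjusted p 0.354, permutation) and a rho of 0.51 (adjusted p 0.0628), and within groups their r was -0.0029. The remaining 3 pairs had an r of 0.16 to 0.31, with adjusted p values from 0.354 to 0.526. All libraries entered the same scaling and differed in base composition and marker content, whose part in these correlations was not tested: the median r with 8 hippocampal neuron markers was 0.41 for Dusp6, 0.40 for Dusp4, 0.32 for Dusp5 and 0.17 for Dusp1.

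By Pearson's r of log2 CPM over the 18 libraries, among 12749 other genes whose mean log2 CPM reached 1, the genes most like each member were different for each. Dusp1 was most like Ccn1 (r 0.89, within groups 0.91), an immediate early gene for a secreted matrix protein, then Rnf114 (0.78), a ubiquitin ligase, and Gfpt2 (0.76), an enzyme of hexosamine synthesis. Dusp5 was most like Rasl11b (0.90, within groups 0.89), a small GTPase of the RAS family, then Inip (0.85), part of a complex that binds single-stranded DNA, and Errfi1 (0.85), a feedback inhibitor of the EGF receptor. Dusp4 was most like Camkk2 (0.84), a kinase that activates calcium/calmodulin-dependent kinases, Jakmip3 (0.84) and Magi1 (0.83), a scaffold protein. Dusp6 was most like Dlg3 (0.85), a postsynaptic scaffold, Tle1 (0.84), a transcriptional corepressor, and Pou3f1 (0.83), a transcription factor. These are the highest of many correlations and have no test. In these orders by r, Dusp6 came at rank 63 for Dusp5 and Dusp5 at rank 51 for Dusp6, while Dusp1 came at rank 2814 for Dusp5. Dusp6 came at rank 374 for Dusp4 and Dusp4 at rank 240 for Dusp6.

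The genes around these phosphatases were read from lists of the same pathway. In D+V against S-V, 13.0% of all genes had an unadjusted p under 0.05, and 4.79% were lower at it. None of 5 other MAP kinase phosphatases reached that p, and their median log2 fold change was -0.039. The 11 atypical dual-specificity phosphatases had a median of -0.011 with 0 at that p. The 7 feedback inhibitors of ERK signalling had a median of -0.0084 with 1 lower, Errfi1 at -0.34 (SE 0.094, adjusted p 0.187 by edgeR). The 18 genes of the RAS, RAF, MEK and ERK cascade had a median of 0.020 with 1 higher, the 14 of the JNK and p38 cascades 0.021 with 0, and the 11 transcription factors that MAP kinases regulate 0.0054 with 2 lower.

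Immediate early genes, which neurons switch on within minutes of activity, were lower in D+V than in S-V for 24 of 24 measured genes, with a median log2 fold change of -0.24, against 51.1% of all genes. At an unadjusted p under 0.05, 10 of the 24 were lower, where 4.79% of all genes were, and 0 were called. The list was chosen with these data known. Egr2, which was named by rule, was at -0.96 (SE 0.27, adjusted p 0.187 by edgeR), with every D+V library below every S-V library, and Npas4 was at -0.14 (SE 0.20). Of 13 glucocorticoid-induced genes 10 were lower (median -0.23), 7 of them at that p (4.79% of all genes) and 0 called, and the list shares Errfi1 with the feedback inhibitors and Per1 with the immediate early genes. In D-V against S-V all 13 were lower (median -0.35), 10 of them at that p, where 3.01% of all genes were lower at it, and 0 were called. Dusp1, itself induced by glucocorticoids, was at -0.20 in that comparison (adjusted p 0.790 by edgeR). In S-V against Control all 13 were higher (median 0.24), where 49.4% of all genes were negative. Of the 13, 5 were higher at that p, which 13.7% of all genes passed in either direction, and 0 were called. Dusp1 was at 0.028 there (SE 0.13), a value whose sign changed with the scaling. Some markers of other cells were also lower in D-V than in S-V, with 7 of 7 for astrocytes, 8 of 8 for oligodendrocytes, 7 of 8 for microglia and 7 of 8 for thalamus and habenula. Others were higher in D-V, with 11 of 11 for choroid plexus (median 0.57), 6 of 6 for red blood cells (median 0.62) and 9 of 12 for endothelium and pericytes (median 0.040). Hippocampal neuron markers had 6 of 8 lower and striatum markers 3 of 6. The part of all these markers was not tested.

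**Figure D5:**
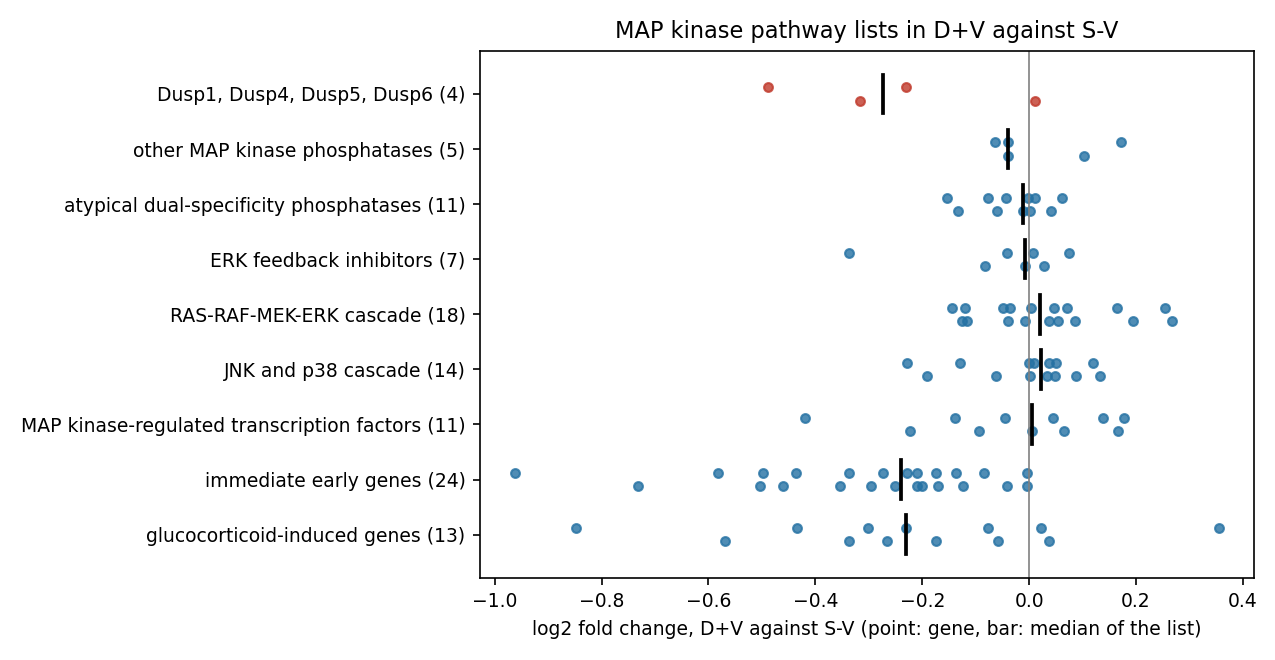
Log2 fold change in D+V against S-V (x axis) of each measured gene (points) in the 4 phosphatase genes (red) and 8 related lists (blue, number of genes in parentheses), with bars at the medians. The medians of the 4 genes (-0.27), the immediate early genes (-0.24) and the glucocorticoid-induced genes (-0.23) lie to the left of the others.

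In the rotated groups together against Control, 0 genes of these 8 lists were called. Genes with the smallest p of each list, up to 2 a list, are given as values. Among the other MAP kinase phosphatases, Dusp8, a neuronal phosphatase for JNK and p38, was at -0.091 (SE 0.063), and Dusp16, a JNK phosphatase, at -0.10 (SE 0.12). The atypical phosphatases Dusp28 and Dusp12 were at -0.24 (SE 0.087) and -0.17 (SE 0.096). Of the feedback inhibitors, Spred1, which restrains RAF activation, was at 0.26 (SE 0.078, adjusted p 0.184 by edgeR), higher in 12 of 15 rotated libraries than in all 3 Control libraries, and Spry2, a Sprouty inhibitor of receptor tyrosine kinase signalling, was at -0.17 (SE 0.081, adjusted p 0.374). Voom with quality weights put Spred1 at 0.29 with an adjusted p of 0.0344, and it called 381 of 14763 genes in that comparison. Over 9 alternative settings Spred1 ran from 0.13 to 0.29. The adjusted p values there (edgeR, DESeq2 or voom) ran up to 0.747. How many of all genes had 12 of 15 rotated libraries above all Control libraries was not counted.

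Of the ERK cascade, Rps6ka5, the nuclear kinase MSK1, was at 0.29 (SE 0.091). Of the JNK and p38 cascades, Mapk8, which encodes JNK1, was at 0.23 (SE 0.088) and Map2k6, which activates p38, at 0.26 (SE 0.12). Of the transcription factors, Elk1, an ERK substrate that acts with serum response factor, was at -0.22 (SE 0.077) and Atf2, a target of p38 and JNK, at 0.20 (SE 0.073). Egr2 and Npas4 were at -0.57 (SE 0.25) and -0.47 (SE 0.19). Fkbp5 and Zbtb16, induced through the glucocorticoid receptor, were at 0.15 (SE 0.096) and 0.28 (SE 0.18). Adjusted p values of these genes in that comparison were 0.184 or higher by edgeR.

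Reads of overlapping genes could not be told apart, since the use of strand in counting is not stated. In the GENCODE annotation of GRCm38, an antisense transcript covers 547 of the 2473 exon bases of Dusp5, and Ergic1 on the opposite strand shares 11 of the 3311 exon bases of Dusp1, so both are uncertain to that extent. Dusp4 and Dusp6 overlap no other gene there.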

How the data were processed

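Polyadenylated RNA of 18 mouse hippocampus samples had been sequenced on an Illumina NovaSeq instrument, per the labels' protocols. Gene-level estimated counts were deposited, with 7.35% of values not whole, per the file headers and the values. The submitters' processing notes name Bowtie2 2.2.8, HISAT2, StringTie 1.3.1 and DESeq2 with no role. How reads were counted, and on which genome build, is not given in the sources that were used, and counting errors cover reads, not molecules, as no molecular identifiers were used.

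Counts were rounded and filtered with filterByExpr of edgeR 4.0.16 (R 4.3.3), scaled by TMM and tested with the quasi-likelihood F test in 1 fit of 4 group means over 18 libraries. A call was a Benjamini-Hochberg adjusted p under 0.05 over 14763 genes. Levels are TMM-scaled CPM, and log2 CPM used a prior count of 2. Correlations were tested with 100000 permutations. Scripts were tested on simulated data. The members, lists and motifs were chosen with earlier results of these data known. Named beside the 4 genes were the 2 genes of each list with the smallest p in the rotated groups together against Control and the 3 genes with the highest r with each member, plus Errfi1 in D+V against S-V, named after its value was seen. A result for 1 gene that the rule selects is not reported here. Dusp9, Mapk13 and 1 thalamus marker were under the filter. The labels used here do not say whether replicate numbers pair the libraries, and the main fit did not pair them. Same-numbered libraries had a median correlation of deviations of 0.021 over 24 pairs, against 0.018 over 96 pairs of different number. It exceeded 0.1 in 10 of the 24 pairs and in 38 of the 96. Such correlations over all genes cannot exclude a shared batch. Alternatives used other scalings (RLE, upper quartile), an open filter, a filter of at least 1 CPM in 3 libraries, DESeq2 1.42.0, limma 3.58.1 voom (quality weights), a fit of only the groups compared, a replicate block, removal of GC and length trends, and omission of each library or of those rich in choroid plexus markers. A robust spread was added after seeing the data.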

Additional observations from a re-analysis of the deposited data

Results flagged for a closer look

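Of 12 groups of 5 values (4 genes in 3 rotated groups), 4 had a value far from the nearest other by Dixon's rule, whose nominal rate is about 5% of groups. The share flagged over all genes was not computed, and the groups share libraries, so the 4 cannot be read as an excess in these genes. For Dusp1, D-V replicate 5 at 25.2 CPM lay above the other 4 D-V libraries, which had 18.6 to 20.2 CPM. The same library was also far above its group for Dusp5, at 29.0 CPM against 21.6 to 22.8 CPM in the others. For Dusp1, S-V replicate 4 at 28.6 CPM lay above 22.2 to 22.9 CPM in the other S-V libraries, and this library is one of the 5 rich in choroid plexus markers. For Dusp4, D+V replicate 1 at 11.7 CPM lay below 18.2 to 19.3 CPM in the other D+V libraries, and it is the library whose deviation ran with transcript length in the opposite direction to the rest of its group.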

How the results depend on the processing

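Dusp5, Dusp1 and Dusp6 stayed negative in D+V against S-V under all 11 settings, at -0.58 to -0.43, -0.33 to -0.22 and -0.36 to -0.17 on the log2 scale, and under all 18 single-library omissions. The number of members called was 1, Dusp5, in D+V against S-V with DESeq2 (-0.48) and voom (-0.58) and in D-V against D+V with voom (0.44). It was 0 to 1 in both comparisons with a library left out. Other values near 0 changed sign. Dusp1 in S-V against Control was -0.0065 with upper quartile scaling, -0.060 with voom, -0.043 with the replicate block and -0.045 without the choroid-rich libraries. Dusp6 in D+V against Control was -0.038, -0.0050, -0.014 and -0.0039 in the same order. Dusp4 was -0.017 in S-V against Control with the block, -0.15 in D+V against S-V without the choroid-rich libraries, and -0.039 with voom and -0.056 without GC and length trends in D-V against D+V. Without those trends Dusp5 was 0.0091 in D+V against Control and Dusp8 0.0010 in the rotated groups together against Control. For deviations from group means, r was -0.0029 for Dusp1 with Dusp5 and -0.043 for Dusp1 with Dusp6. The cause of these changes was not tested.

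With 1 library left out, Dusp4 ran from -0.023 to 0.29 in D-V against Control, -0.059 to 0.25 in D+V against Control, -0.070 to 0.24 in S-V against Control, -0.051 to 0.26 in the rotated groups together against Control, -0.081 to 0.11 in D-V against D+V, -0.064 to 0.16 in D-V against S-V and -0.043 to 0.13 in D+V against S-V. Dusp5 ran from -0.29 to 0.11 in D+V against Control, -0.0088 to 0.39 in the rotated groups together against Control, 0.27 to 0.43 in D-V against D+V and -0.56 to -0.42 in D+V against S-V. Dusp1 ran from -0.059 to 0.12 in S-V against Control, Dusp6 from -0.062 to 0.11 in D+V against Control and Dusp16 from -0.18 to 0.0098 in the rotated groups together against Control, and r ran from -0.045 to 0.49 for Dusp1 with Dusp4 and from 0.55 to 0.70 for Dusp4 with Dusp6.

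The fit with the replicate number as a block gave Dusp5 in D+V against S-V at -0.48 (adjusted p 0.266 by edgeR) and called 0 members in any comparison. It called 5 genes in D+V against Control, where the fit without it called 134, and 3 of 18 libraries correlated best with 1 of their own number. Over all settings and omissions the genes called ran from 0 to 1882 in D+V against Control, 0 to 1943 in D+V against S-V and 0 to 1230 in D-V against D+V. Limiting the fit to the groups compared was not run for the rotated groups together against Control, a comparison that holds all 4 groups.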

Other observations

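Within the pathway lists, the gene whose level ran closest to a member was picked after the values were seen and has no test. Among immediate early genes this was Arc for Dusp5 (r 0.74 over 18 libraries) and for Dusp6 (0.73), Btg2 for Dusp1 (0.72) and Egr1 for Dusp4 (0.53), while the median r over the 24 genes was 0.42, 0.33, 0.41 and 0.080 for Dusp5, Dusp6, Dusp1 and Dusp4 in that order. For deviations from the group means those medians were 0.26, 0.20, 0.053 and 0.11. Among the transcription factors, Elk4, a partner of serum response factor, had the highest r with Dusp5 (0.70) and with Dusp6 (0.77). For Dusp1 it was Elk3 (0.65) and for Dusp4 Creb1 (0.59). The median r over those factors was 0.19 for Dusp5, 0.11 for Dusp6, 0.11 for Dusp1 and 0.24 for Dusp4. Among glucocorticoid-induced genes the highest r was that of Errfi1 with Dusp5 (0.85) and with Dusp6 (0.76). For Dusp1 it was that of Nfkbia, the inhibitor of NF-kappa-B (0.76), and for Dusp4 that of Zbtb16 (0.47). The median r over that list was 0.43 for Dusp5, 0.35 for Dusp1, 0.24 for Dusp6 and 0.021 for Dusp4.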
